A study of Mus musculus with 2 samples.

Results

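Cd36, Fabp4, Fabp5, Lpl, Gpihbp1 and Meox2 form a set of 6 genes of fatty acid uptake and binding in vessel walls and tissue cells. They were chosen by symbol from the 31053 genes of the deposited tables, each symbol matched 1 row, and all 6 are described here. The rule itself used their symbols and no measured value, though earlier results of these data were known when the set was proposed.

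The counts come from droplet-based single-cell RNA sequencing of mouse aortic arch, cut up and freed into single cells with an enzyme mix sold for dissociating lung. There was 1 library from mice on a normal diet (ND) and 1 from mice on a high-fat diet (HFD), and cells of 2 aortas were pooled for each. Both groups were male C57BL/6 mice lacking Apoe, which carries plasma lipoproteins to their receptors, and both were 16 weeks of age. They differed in the food given from weaning, and the HFD held lard, sucrose, cholesterol and sodium cholate. With 1 library per diet no test is possible and no p-value is given. A ratio of HFD to ND compares these libraries, and diet, mouse pool and library preparation cannot be told apart.

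Lipoprotein lipase, encoded by Lpl, splits triglycerides of circulating lipoproteins into fatty acids, and Gpihbp1 encodes the protein that carries it across capillary endothelium and holds it on the luminal face. Cd36 encodes a membrane receptor for long-chain fatty acids and oxidised lipoproteins, and Fabp4 and Fabp5 encode the soluble proteins that bind fatty acids inside endothelial cells, adipocytes and macrophages. Meox2 encodes a homeobox transcription factor that acts with Tcf15 to set the fatty acid uptake program of heart endothelium.

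All 6 are protein-coding genes. In the GRCm38 build, with GENCODE M21 annotation, Cd36 (ENSMUSG00000002944) lies at chr5:17781690-17888801 on the minus strand and Meox2 (ENSMUSG00000036144) at chr12:37108540-37179534 on the plus strand. Fabp4 (ENSMUSG00000062515) at chr3:10204088-10208576, minus strand, and Fabp5 (ENSMUSG00000027533) at chr3:10012548-10016607, plus strand, lie on one chromosome. Lpl (ENSMUSG00000015568) is at chr8:68880491-68907448 and Gpihbp1 (ENSMUSG00000022579) at chr15:75596628-75599481, both on the plus strand. Since Fabp4 and Fabp5 are members of one family whose reads could be mistaken for each other, their coding sequences were aligned. The 399 coding bases of Fabp4 and the 408 of Fabp5 were identical at 243 of 399 aligned positions (60.9%), and the longest run shared by both was 12 bases. Untranslated regions, where reads of 3′ libraries can lie, were not compared. The alignment therefore cannot show whether reads of the genes were mistaken for each other. A stretch of 120 bases around the longest run identical in the alignment is given here 5′ to 3′ on the gene strand from the GENCODE transcripts Fabp4-201 (coding bases 51 to 170) and Fabp5-201 (coding bases 57 to 176), and capitals mark the 45 bases that differ.
Fabp4: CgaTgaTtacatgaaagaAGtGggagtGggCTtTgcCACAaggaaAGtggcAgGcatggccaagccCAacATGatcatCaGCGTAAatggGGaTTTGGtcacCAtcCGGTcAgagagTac
Fabp5: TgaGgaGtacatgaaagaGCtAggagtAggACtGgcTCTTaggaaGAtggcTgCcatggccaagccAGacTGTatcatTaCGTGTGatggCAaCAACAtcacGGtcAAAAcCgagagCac

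Promoter windows of 2 of the 6 genes were in the RefSeq table used here (GRCm38.p6). The 250 bases before the RefSeq start are shown for Cd36, which was higher in HFD capillary cells beside Fabp4 and Lpl, and for Meox2, the transcription factor of the set. They lie at chr5:17835897-17836146 on the minus strand and chr12:37108290-37108539 on the plus strand, and neither overlaps an exon in GENCODE M21. The Cd36 window lies inside the gene as positioned above, whose most distant transcript starts are far upstream, and none of the 6 GENCODE transcript starts of Cd36 is at the RefSeq start, the nearest being 179 bases downstream of it. Capitals mark matches, on either strand, to TATAAA (the TATA box), to the promoter motif CCAAT, to the nuclear receptor repeat unit AGGTCA, which is bound by factors such as PPARγ, and to the homeodomain core TAATTA. These motifs do not overlap each other in either window.
Cd36: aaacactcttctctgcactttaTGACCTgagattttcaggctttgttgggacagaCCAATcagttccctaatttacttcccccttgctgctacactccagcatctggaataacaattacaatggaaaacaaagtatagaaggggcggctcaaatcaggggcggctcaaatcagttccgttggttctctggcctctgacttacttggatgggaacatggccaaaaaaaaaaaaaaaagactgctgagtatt
Meox2: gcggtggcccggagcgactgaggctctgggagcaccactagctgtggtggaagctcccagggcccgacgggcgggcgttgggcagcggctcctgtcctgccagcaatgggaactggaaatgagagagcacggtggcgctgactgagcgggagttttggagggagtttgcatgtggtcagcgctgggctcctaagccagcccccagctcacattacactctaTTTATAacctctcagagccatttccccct

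The Cd36 window held AGGTCA once, read on the opposite strand and beginning 228 bases before the start, and CCAAT once at 195 bases. The Meox2 window held the TATA motif once, on the opposite strand at 29 bases. Of 32851 RefSeq windows of the same length, 12.4% held TATAAA, 33.8% held the motif CCAAT, 14.0% held the repeat unit AGGTCA and 4.84% held the homeodomain core TAATTA. A match of these letters is a description of the sequence and not evidence of binding.

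A cell was kept with at least 200 genes, at least 200 UMIs (unique molecular identifiers, each standing for a captured transcript) and at most 30% mitochondrial UMIs. This left 5416 of 10234 barcodes in ND and 2739 of 14225 in HFD, the cell numbers that the series design gives. The same text puts the medians of reads and transcripts per cell higher in the control group, while the matrices hold more per cell in HFD, and the reason was not tested. The median was 3732.5 UMIs per kept cell in ND and 5336 in HFD, and the median mitochondrial share was 16.8% and 21.9%. Haemoglobin genes held 3909 counts per 1000000 (CPM) in ND and 26556 CPM in HFD, and 1 kept cell barcode occurred in both libraries. Apoe itself read 46.3 CPM in ND and 49.1 CPM in HFD, which checks nothing about the deletion, since 3′ counting can read a transcript outside the deleted part. Cells were assigned to a class by UMIs of at least 3 of its 6 marker genes and at most 2 of any other class, and none of the 6 fatty acid genes was a marker. Barcodes with at least 3 markers of 2 or more classes (818 in ND, 514 in HFD) were set aside as mixed.

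Endothelial cells were the largest class, with 2147 cells in ND and 1111 in HFD. Among them, 1848 and 999 carried the capillary markers Cd300lg, Rgcc, Aqp1, Car4 and Kdr, and 186 and 79 carried the luminal markers Cytl1, Vwf, Vcam1, Bmp4 and Sulf1. The labels do not say from which vessels within the arch preparation the capillary cells came. Airway club cells numbered 59 in ND and 0 in HFD, so the suspensions differed in tissue. Whether the capillary cells of ND and HFD came from the same tissue was not tested. Macrophages numbered 321 and 459. They were divided into resident cells (Lyve1, Folr2, Cd163, F13a1, Timd4), foam cells (Gpnmb, Trem2, Spp1, Mmp12, Atp6v0d2) and others. Fibroblasts numbered 909 and 402. Levels below are UMIs of a gene in CPM of all UMIs of the gated cells, with exact Poisson 95% intervals in parentheses. The intervals cover counting error only and say nothing of the spread between mice.

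Gpihbp1, the lipase anchor, had the largest ratio of capillary to luminal level of the 6 genes in both libraries. Its level was 2582 CPM (2547 to 2618) in ND capillary cells and 2332 CPM (2293 to 2372) in HFD capillary cells. Luminal endothelial cells held 38.5 CPM (28.2 to 51.3) in ND and 24.2 CPM (13.5 to 39.9) in HFD. The capillary level was thus 67.1 times the luminal level in ND (interval 50.3 to 91.7) and 96.5 times in HFD (58.5 to 173). T cells, in which UMIs of an endothelial gene can come from free RNA in the droplets, held 15.2 CPM in ND and 24.4 CPM in HFD. They are used below as a comparison level, which is uneven in HFD, where there were 25 T cells and the top cell for each gene held 9 of 15 Cd36 UMIs, 41 of 88 Fabp4 UMIs and 3 of 4 Gpihbp1 UMIs. Outside endothelium, no gated cell type with at least 20 cells exceeded 40 CPM in either library, and adipocytes, from 20 ND cells, held 1 UMI. The 35 arteriolar cells of ND (Stc1, Hey1, Sema3g, Gja4, Gja5) held 1219 CPM, an interval that overlapped that of the 59 endothelial cells without a subset (1052 CPM).

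Cd36, the fatty acid receptor, followed the same endothelial order and was also found in adipocytes, airway cells and macrophages. Capillary cells held 4013 CPM (3969 to 4057) in ND and 5566 CPM (5505 to 5627) in HFD. Almost every capillary cell carried the transcript. The share of capillary cells with a Cd36 UMI was 99.8% in ND and 99.9% in HFD, against 8.26% and 28.0% of T cells, at medians of 3258.5 and 5200 UMIs in capillary cells and 2615.5 and 5438 UMIs in T cells. After thinning each cell to 1000 UMIs, which left out 4 ND capillary cells, the shares were 96.0% and 98.0% of capillary cells and 3.72% and 8.0% of T cells. Next in ND came arteriolar cells (3469.6 CPM, 3148 to 3815), endothelial cells without a subset (2284 CPM), adipocytes (1071 CPM, 959 to 1191) and foam macrophages (1045 CPM, 899 to 1207), of which the last 2 overlapped, and then airway club cells (687 CPM, 635 to 742). Luminal cells stood at 126 CPM in ND and 93.4 CPM in HFD, beside 31.8 CPM and 91.4 CPM in T cells, of which the HFD value rested mostly on 1 cell.

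Fabp4 was the most abundant of the 6 transcripts. In capillary cells its UMIs made up 2.95% of all UMIs in ND and 3.58% in HFD, or 29531 CPM (29412 to 29649.6) and 35792 CPM (35638 to 35946.5). All but a few capillary cells held it, 99.9% in ND and 100% in HFD. Adipocytes of ND reached 13280.4 CPM (12881 to 13689), below the arteriolar cells at 17316 CPM. The luminal level was 952 CPM (898 to 1009) in ND and 1066 CPM (987 to 1151) in HFD, and it was uneven, since the median luminal cell of ND held 128 CPM and the 90th percentile 4808 CPM. T cells held 299 CPM in ND and 536 CPM in HFD. Both are above some other cells of the same library, since ND dendritic cells held 129 CPM and HFD macrophages of neither subset 247 CPM (205 to 295). They are below others, since ND neutrophils held 533 CPM (419 to 668) and HFD foam macrophages 983 CPM (936 to 1033). Of the HFD T cell UMIs, 83.0% were in 3 cells.

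**Figure D1:**
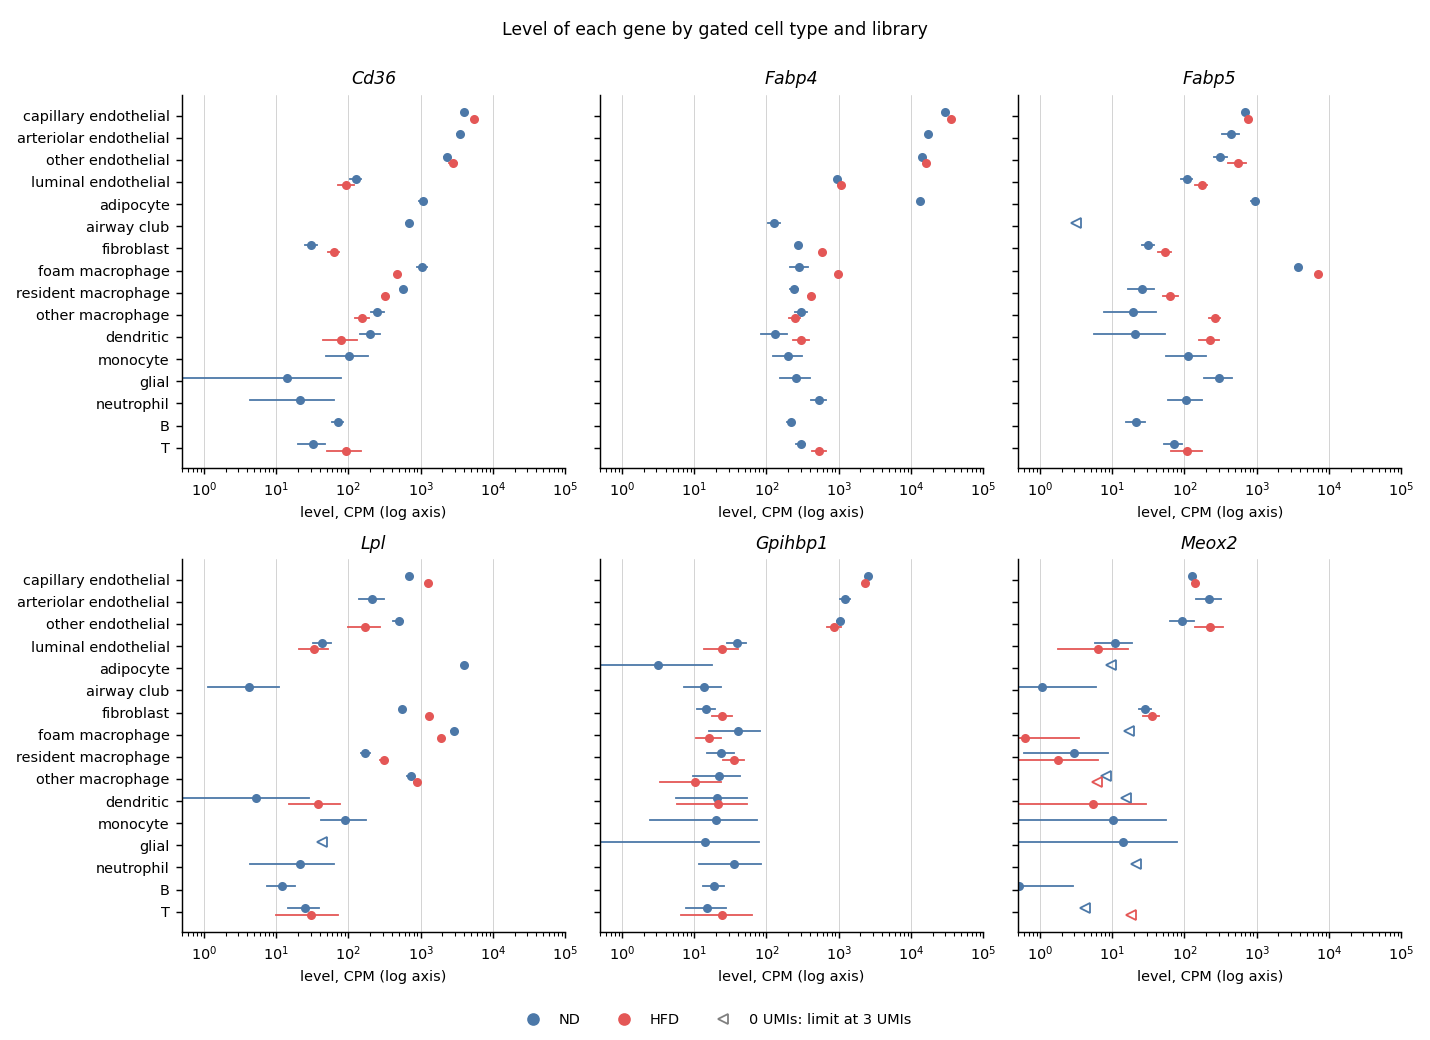
Level of each gene (CPM, log axis) in every gated cell type with at least 20 cells, in ND (blue) and HFD (red). Points are sums over the cells of a gate, bars are exact Poisson 95% intervals, and open triangles mark 0 UMIs at the limit of 3 UMIs. Cd36, Fabp4 and Gpihbp1 lie highest in capillary endothelium in both libraries, while Fabp5 lies highest in foam macrophages. In ND, 1 of 20 foam cells held 69.4% of the Fabp5 UMIs of that gate.

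Fabp5, the epidermal relative of Fabp4, had a different order. Its highest level in both libraries was in foam macrophages, 3691 CPM (3413 to 3986) in ND and 7096 CPM (6966 to 7227) in HFD. The ND value rested on few cells, since 451 of its 650 UMIs were in 1 of 20 cells. Capillary cells held 687 CPM (669 to 705) in ND and 749 CPM (726 to 771) in HFD, and ND adipocytes 937 CPM (833 to 1051). Resident macrophages held 25.6 CPM in ND, below the 70.5 CPM of T cells. In HFD they held 63.8 CPM against 110 CPM in T cells, with overlapping intervals (49.9 to 80.3 and 65.0 to 173). The 59 airway club cells of ND had 0 Fabp5 UMIs, which allows a level of up to 3.17 CPM by the limit of 3 UMIs, although they carried 651 Cd36 UMIs.

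Lpl, the lipase, had its highest levels in adipocytes, macrophages, capillary cells and fibroblasts. In ND the 20 adipocytes stood first at 4003 CPM (3785 to 4230.5), followed by foam macrophages at 2879 CPM (2634 to 3141). Macrophages of neither subset (728 CPM, 643 to 822) and capillary cells (697 CPM, 679 to 715) had overlapping intervals, and fibroblasts followed at 550.0 CPM (526 to 575). In HFD the first 3 were foam macrophages at 1889 CPM (1822 to 1957), fibroblasts at 1316 CPM (1263 to 1370) and capillary cells at 1279 CPM (1250.4 to 1309), and the last 2 intervals overlapped. Lpl was therefore at like levels in HFD capillary cells, which held its anchor Gpihbp1, and in HFD fibroblasts, where Gpihbp1 was at the T cell level. Luminal cells and T cells of both libraries and B cells and airway club cells of ND held under 45 CPM.

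Meox2, the transcription factor, was the lowest of the 6. Its level was 127 CPM (120 to 135) in ND capillary cells and 141 CPM (132 to 151) in HFD. The 35 arteriolar cells of ND held 219 CPM (145 to 319), which did not overlap the capillary interval, from 27 UMIs. Fibroblasts held 28.7 CPM (23.4 to 34.9) and 35.1 CPM (27.0 to 44.9). T cells had 0 Meox2 UMIs in both libraries, which allows up to 4.15 CPM in ND and 18.3 CPM in HFD, so the fibroblast level stood above theirs. Luminal cells held 10.9 CPM (5.79 to 18.6) in ND from 13 UMIs and 6.44 CPM (1.76 to 16.5) in HFD from 4.

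The 6 genes thus all stood higher in capillary than in luminal endothelium, and the gap differed between them. Beside Gpihbp1, the capillary level of Cd36 was 32.0 times the luminal level in ND (27.2 to 37.8) and 59.6 times in HFD (46.1 to 78.5), and that of Fabp4 31.0 and 33.6 times. Lpl stood at 16.0 and 37.8 times and Meox2 at 11.7 and 21.9 times. The smallest gap was that of Fabp5, at 6.36 times in ND (5.34 to 7.64) and 4.34 times in HFD (3.59 to 5.31). Luminal cells themselves held 509.6 CPM of the summed capillary markers in ND and 955 CPM in HFD, against 8607 and 7429.6 CPM in capillary cells, and the part of such RNA in the luminal levels was not tested.

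Across all kept cells, capillary endothelium held 71.0% of Cd36 UMIs in ND and 72.9% in HFD, 74.6% and 75.9% of Fabp4 UMIs, 77.1% and 78.2% of Gpihbp1 UMIs, and 64.8% and 68.0% of Meox2 UMIs. Mixed barcodes held between 15.7% and 27.0% of the UMIs of each gene. For these 4 genes the cells that carried the transcript were thus the same class in both libraries. Fabp5 was different, since capillary cells held 57.6% of its UMIs in ND and 21.5% in HFD, and foam macrophages 6.78% and 57.0%. Lpl UMIs came to 39.0% and 40.9% from capillary cells, 13.6% and 13.1% from fibroblasts and 6.58% and 21.2% from all macrophages, with 8.78% from the 20 adipocytes of ND. Over all kept cells, 3 of the 6 genes were past 1.5-fold higher in HFD and none lower, where 5.47% of 13389 genes were higher and 17.8% lower. They were Fabp5 (353 and 1169 CPM, a log2 ratio of 1.73), Lpl (529 and 1050 CPM, 0.99) and Cd36 (1675 and 2567 CPM, 0.62), while the Gpihbp1 interval held 0 (994 and 1003 CPM, -0.015 to 0.041). These shares and levels follow the number of cells of each type in the suspension, and foam cells were 6.23% of gated macrophages in ND (exact binomial interval 3.85% to 9.46%) and 36.6% in HFD (32.2% to 41.2%).

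**Figure D2:**
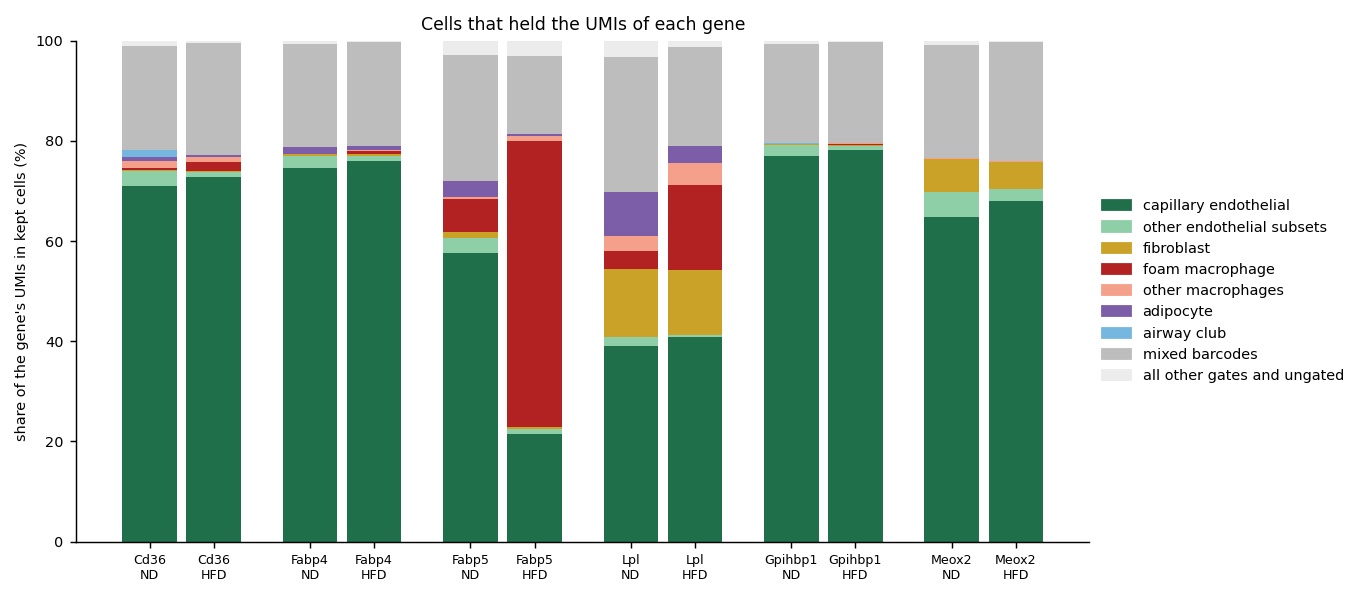
Share of each gene's UMIs (percent of the UMIs in kept cells) by gated cell type, in ND and HFD. Capillary endothelium held between 64.8% and 78.2% for Cd36, Fabp4, Gpihbp1 and Meox2 in both libraries, while the Fabp5 share of foam macrophages was 6.78% in ND and 57.0% in HFD.

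Within capillary endothelium, Lpl was the gene with the largest difference between the libraries, 697 CPM in ND and 1279 CPM in HFD, a log2 ratio of HFD to ND of 0.88 (exact conditional interval 0.83 to 0.93). Cd36 followed with 0.47 (0.45 to 0.49), Fabp4 with 0.28 (0.27 to 0.29), Meox2 with 0.15 (0.01 to 0.28) and Fabp5 with 0.12 (0.07 to 0.18). Gpihbp1 alone was lower in HFD, with a log2 ratio of -0.15 (-0.18 to -0.12), which came to -0.0035 under scaling by the median of ratios. Lpl was thus the only one of the 6 past 1.5-fold. Of the 9628 genes that could be compared, with 4 or more UMIs in ND and in HFD and a sum of 50 or more, 6.21% were past 1.5-fold higher and 16.4% past 1.5-fold lower in HFD capillary cells, with a median log2 ratio of -0.16. The median of the 6 genes was 0.21.

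These capillary ratios can be placed among all genes. The Lpl ratio was exceeded by 2.78% of the genes, that of Cd36 by 8.27%, that of Fabp4 by 14.7% and that of Gpihbp1 by 49.0%. The distance of Gpihbp1 from 0 was therefore that of the middle gene. Under scaling by the median of ratios, the capillary Cd36 ratio was 0.62 and passed 1.5-fold, and with totals that left out mitochondrial, haemoglobin and ribosomal protein genes it was 0.61. Without a limit on mitochondrial UMIs the ratios of Fabp5 and Meox2 changed sign, to -0.15 and -0.10.

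The Lpl difference was seen in the share of cells as well. Thinned to 1000 UMIs, 46.0% of ND capillary cells and 65.4% of HFD capillary cells held an Lpl UMI, against 1.65% and 4.0% of T cells, and as counted the shares were 79.3% and 93.2%. The median capillary cell held 560 CPM in ND and 1101 CPM in HFD. Adipocyte markers summed to 79.3 CPM in ND capillary cells and 141 CPM in HFD capillary cells, with UMIs of all 6 of 6 markers in both, and their part in the result was not tested. Haemoglobin genes read 6892 CPM and 42413 CPM in the same cells. After the T cell level of each library was subtracted, the Lpl ratio was 0.89 in capillary cells.

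**Figure D3:**
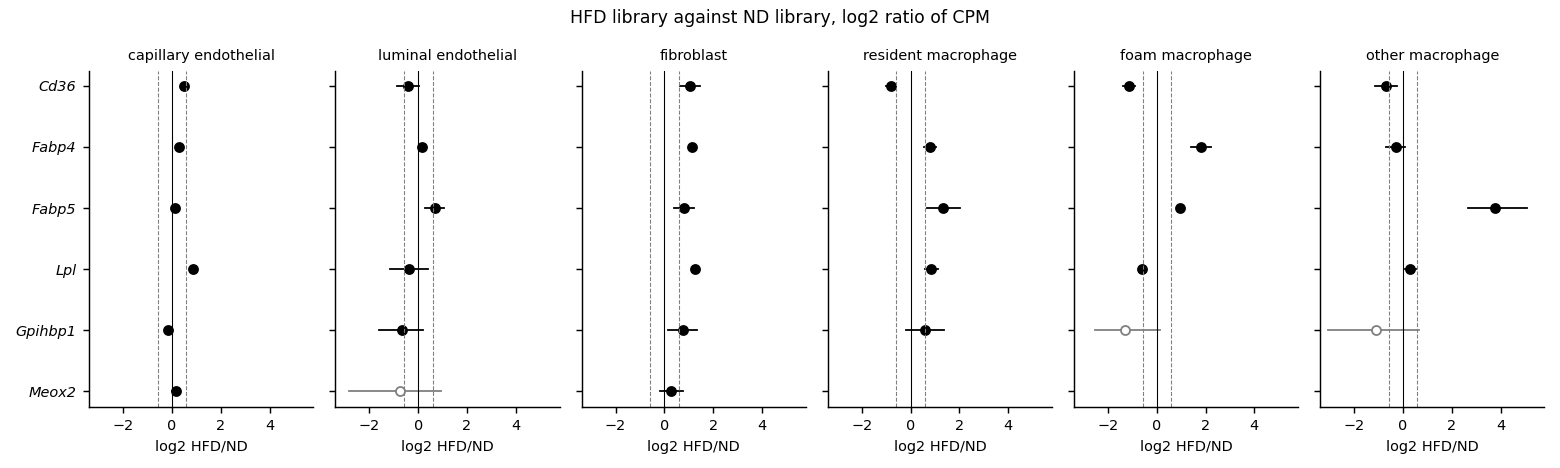
Log2 ratio of HFD to ND CPM for each gene in 6 cell types. Bars are exact conditional 95% intervals that cover counting error only, open circles are genes with under 50 UMIs in both libraries together, ratios with under 4 UMIs in a library are not drawn, and dashed lines mark 1.5-fold. Lpl lies above 1.5-fold in capillary cells, fibroblasts and resident macrophages (0.88, 1.26 and 0.84) and below it in foam macrophages (-0.61).

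Luminal endothelial cells gave few UMIs, and 5 of the 6 genes could be compared. Fabp5 was 108 CPM in ND and 172 CPM in HFD, a log2 ratio of 0.67 (0.29 to 1.06). Gpihbp1 went the other way with 46 UMIs in ND and 15 in HFD and a ratio of -0.67, but its interval of -1.62 to 0.20 held 0. With 1 gene past 1.5-fold in each direction, these counts stand beside 8.64% of 4966 genes higher and 11.3% lower. Fabp4 (0.16, 0.02 to 0.30), which was -0.30 after the T cell level was subtracted, and Cd36 (-0.43, -0.89 to 0.02) did not pass. Lpl stood at 43.5 and 33.8 CPM (-0.36, -1.17 to 0.39), and 20 of its 52 ND UMIs were in 1 cell. Without the 5% of cells with the most UMIs the Lpl ratio was 0.68, in the other direction. The capillary markers in luminal cells, higher in HFD as given above, moved with the Fabp5 and Fabp4 values. Cd36 (-0.43), Gpihbp1 (-0.67) and Lpl (-0.36), also higher in capillary cells, went the other way with intervals that held 0. The part of capillary RNA in these luminal values was not tested. The Fabp5 ratio fell below 1.5-fold under 4 of the alternatives, the lowest being 0.51.

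In fibroblasts 5 of the 6 genes were past 1.5-fold higher in HFD, where 4.26% of 8551 genes were higher and 15.3% lower (6.89% and 10.3% under scaling by the median of ratios), and of these 5 Lpl alone had intervals wholly above those of T cells in both libraries. Fibroblast Lpl was 550.0 CPM in ND and 1316 CPM in HFD, a log2 ratio of 1.26 (1.17 to 1.35), and 22.1 and 43.2 times the T cell level. Cd36 was 30.1 CPM and 62.4 CPM (ratio 1.05, 0.66 to 1.45), beside 31.8 and 91.4 CPM in T cells. Fabp4 was 272 CPM and 589.6 CPM (1.12, 0.99 to 1.24), beside 299 and 536 CPM in T cells and 239 and 414 CPM in resident macrophages. The HFD fibroblast level was above those of HFD dendritic cells (304 CPM) and macrophages of neither subset (247 CPM). Fabp5 was 31.0 and 53.5 CPM, beside 70.5 and 110 CPM in T cells, and Gpihbp1 was 14.6 and 24.5 CPM, beside 15.2 and 24.4 CPM. The part of free RNA in these fibroblast values was not tested.

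The proportions between the genes were compared with those of capillary and T cells. Fibroblasts held 9.03 Fabp4 UMIs per Cd36 UMI in ND and 9.45 in HFD, T cells 9.39 and 5.87, and capillary cells 7.36 and 6.43, whereas foam macrophages held 0.272 and 2.07. Fibroblasts held 18.3 and 21.1 Lpl UMIs per Cd36 UMI, against 0.174 and 0.230 in capillary cells. Lpl per Cd36 UMI in fibroblasts was thus far from the capillary proportion. Fabp5 (1.03 and 0.857 against 0.171 and 0.134) and Meox2 (0.95 and 0.56 against 0.032 and 0.025) were far from it too. Fabp4 was nearer to it, as was Gpihbp1 (0.486 and 0.393 against 0.643 and 0.419). T cells were also unlike capillary cells, with 2.22 and 1.2 Fabp5 UMIs and 0.783 and 0.333 Lpl UMIs per Cd36 UMI. They held 0.478 and 0.267 Gpihbp1 UMIs per Cd36 UMI and 0 Meox2 UMIs in both libraries. What these proportions owe to free RNA was not tested. In T cells, Fabp4 (0.84, 0.47 to 1.21) and Fabp5 (0.64, -0.23 to 1.44) were themselves past 1.5-fold higher in HFD, where 20.6% of 2098 genes were higher and 26.0% lower, and Cd36 gave 1.52 (0.48 to 2.52) from 23 and 15 UMIs. Endothelial markers summed to 62.5 CPM in ND fibroblasts and 63.5 CPM in HFD fibroblasts, and adipocyte markers to 21.1 and 20.1 CPM. The gate allowed UMIs of at most 2 markers of each other class per cell. These sums were therefore limited in advance and cannot show how much RNA of other cells was present. The Meox2 ratio in fibroblasts was 0.29 with an interval of -0.19 to 0.76 that held 0. With the gates set on thinned cells, Fabp5 no longer passed 1.5-fold in fibroblasts (0.23), and with at most 20% mitochondrial UMIs Gpihbp1 did not (0.25).

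Fibroblast Lpl differed between groups of fibroblasts that were defined after the data were seen by UMIs of a few marker genes. Cells with Pi16 and Dpp4, markers of adventitial stem-like fibroblasts, held 378 CPM (352 to 406) in ND and 604 CPM (563 to 648) in HFD. Cells with Inmt and Gdf10 held 830 CPM (756 to 909) and 2916 CPM (2694 to 3150), a log2 ratio of 1.81 (1.64 to 1.99). The 15 and 25 cells with Cxcl14 stood highest at 2541 CPM and 4427 CPM. Fibroblasts assigned to none of these groups held 1050.0 CPM in ND and 3279 CPM in HFD, and those with Fmod and Wisp2 were 123 cells in ND at 197 CPM and 8 cells in HFD at 398 CPM. Lpl was higher in HFD in all 5 groups, though the Fmod and Wisp2 interval held 0 (-0.10 to 1.96).

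**Figure D4:**
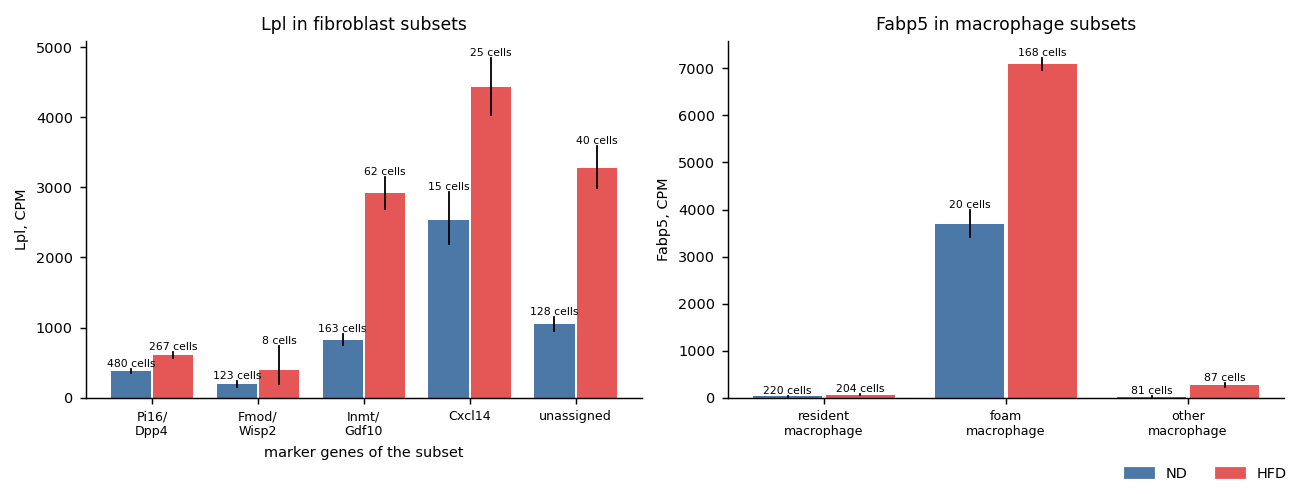
Left, Lpl level (CPM) in fibroblast groups named by their marker genes. Right, Fabp5 level (CPM) in macrophage subsets. Bars start at 0, lines are exact Poisson 95% intervals and numbers are cells. Lpl was higher in HFD in each fibroblast group, and Fabp5 was 3691 CPM in 20 ND foam cells and 7096 CPM in 168 HFD foam cells. Of the Fabp5 UMIs in ND foam cells, 69.4% were in 1 cell.

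Macrophages showed the widest differences between the libraries. Over all macrophages Fabp5 was 439 CPM in ND and 3606 CPM in HFD, a log2 ratio of 3.04 (2.93 to 3.15), and 0.128% of 7053 genes had a higher ratio. Fabp4 was 259 CPM and 673 CPM (1.38, 1.22 to 1.53) and Lpl was 608 CPM and 1185 CPM (0.96, 0.86 to 1.07). Cd36 went the other way, 547 CPM and 373 CPM (-0.55, -0.68 to -0.42), which was short of 1.5-fold. Of the 5 genes with enough UMIs, 3 were past 1.5-fold higher, where 9.67% of all genes were, and none was past 1.5-fold lower, where 16.9% of all genes were. Under scaling by the median of ratios these shares of all genes were 14.7% and 11.5%. Gpihbp1 was near the T cell level in both libraries (25.1 and 22.0 CPM) and Meox2 had 3 UMIs in each.

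The makeup of the class differed, so each subset was compared on its own. With the HFD subsets weighted as in ND, an alternative chosen after the data were seen, the Fabp5 ratio was 1.04 and the Lpl ratio 0.033 in place of 3.04 and 0.96. The Fabp4 ratio was 0.76 and the Cd36 ratio -0.87. At these weights the class-wide Lpl ratio was no longer past 1.5-fold. It joins subsets that went opposite ways, 0.84 in resident cells and 0.29 in those of neither subset, against -0.61 in foam cells. The ND foam level in it came from 20 cells, 1 of which held 36.3% of the Lpl UMIs.

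In resident macrophages Cd36 was 565 CPM (520.1 to 613) in ND and 322 CPM (289 to 356) in HFD, a log2 ratio of -0.81 (-1.01 to -0.62). Lpl was 172 CPM and 308 CPM (0.84, 0.58 to 1.11), above T cells in both libraries, though 39.1% of its HFD UMIs were in 3 of 204 cells. Fabp4 was 239 CPM and 414 CPM (0.79, 0.57 to 1.02) and Fabp5 25.6 and 63.8 CPM, and Gpihbp1 (23.6 and 35.4 CPM) lay within the T cell intervals. Fabp4 and Fabp5 were lower than in T cells of the same library, but only the ND Fabp5 interval lay wholly below theirs. HFD resident Fabp4 (377 to 453) was nonetheless above the 247 CPM of HFD macrophages of neither subset. Among 5 genes 4 were thus past 1.5-fold higher and 1 lower, and the Gpihbp1 interval held 0 (-0.18 to 1.38). Of 4700 genes, 5.00% were past 1.5-fold higher and 11.6% lower. With the gates set on thinned cells, the ratios of Cd36 and Lpl fell short of 1.5-fold (-0.48 and 0.45).

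Foam macrophages were 20 cells in ND and 168 in HFD, at medians of 5589 and 8481 UMIs, and the ND values rested on few of them. Of 650 Fabp5 UMIs in ND, 451 (69.4%) were in 1 cell and 97.5% in 3 cells, and the median ND foam cell held 77.5 CPM. In HFD the top cell held 5.11% of 11458 UMIs and the median cell 4778 CPM. Thinned to 1000 UMIs, 4 of 20 foam cells in ND and 81.5% of those in HFD held a Fabp5 UMI. At that depth a Fabp5 UMI was thus found in few ND foam cells and in most HFD foam cells. The median ND foam cell, at 77.5 CPM as counted, was near the 70.5 CPM of ND T cells. Whether most ND foam cells lacked Fabp5 or held it at a low level was not tested.

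For the foam cells as a whole, the log2 ratio was 0.94 for Fabp5 (0.83 to 1.06), 1.79 for Fabp4 (1.39 to 2.23), -1.14 for Cd36 (-1.37 to -0.90) and -0.61 for Lpl (-0.74 to -0.47). The 4 comparable genes divided into 2 higher and 2 lower past 1.5-fold, where 10.6% of 3604 genes were higher and 18.1% lower. Fabp4 was 284 CPM in ND, level with T cells, and 983 CPM in HFD against 536 CPM in T cells. The Lpl and Cd36 values did not hold without single cells. Without the ND cell that held the most UMIs of the gene, the ratios were -0.08 for Lpl, -0.48 for Cd36 and 2.37 for Fabp5. Without the 5% of cells with the most UMIs (15 and 131 foam cells left), Lpl was 0.47 and Cd36 0.077, and with gates set on thinned cells (6 and 99 cells) Lpl was 1.73.

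Macrophages of neither subset also held more Fabp5 in HFD. They had 7 UMIs in ND (19.4 CPM, 7.79 to 39.9) and 128 in HFD (261 CPM, 218 to 311), a log2 ratio of 3.75 (2.67 to 5.10), beside 70.5 and 110 CPM in T cells. Of the HFD UMIs, 55.5% were in 3 of 87 cells. Cd36 was 252 CPM and 155 CPM (-0.70, -1.16 to -0.24), though with gates set on thinned cells the ratio was 0.0023. Here 9.38% of 2037 genes were past 1.5-fold higher and 14.5% lower. Lpl was 728 and 888 CPM (0.29, 0.06 to 0.51).

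Mixed barcodes, in which UMIs of more than 1 cell type may be joined, gave ratios of 1.06 for Fabp5 (357 and 745 CPM), 0.75 for Cd36 (1399 and 2345.5 CPM), 0.56 for Lpl (0.49 to 0.63), 0.47 for Fabp4 and 0.05 for Gpihbp1 (-0.02 to 0.11). Cd36 and Fabp5 were past 1.5-fold higher there, where 6.08% of 11011 genes were higher and 11.8% lower. Of the 6 genes, all but Gpihbp1 were thus higher in HFD in these barcodes, and the Gpihbp1 interval held 0. The pools were unlike mixtures. Endothelial and macrophage markers were joined in 29 ND and 86 HFD barcodes, and 99 ND barcodes joined endothelial and airway club markers. Fabp5 was 430 CPM in ND and 361 CPM in HFD barcodes with endothelial and fibroblast markers. It was higher in HFD in those joining endothelial markers with T cell, macrophage or pericyte markers.

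Single endothelial cells were also compared after thinning to 1000 UMIs, with Spearman's rho as a description of cells that share a library. Over all endothelial cells, Cd36 and Fabp4 had rho of 0.38 in 2141 ND cells and 0.48 in 1111 HFD cells, and Fabp4 and Gpihbp1 0.42 and 0.45. Within capillary cells alone these fell to 0.17 and 0.32 for Cd36 with Fabp4, and 0.22 and 0.31 for Fabp4 with Gpihbp1. Lpl differed most, since its rho with Fabp4 in capillary cells was 0.00 in ND and 0.31 in HFD. Meox2, with UMIs in 11.3% and 13.01% of thinned capillary cells, had rho between -0.03 and 0.05 with the other 5.

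Other genes with a like pattern were sought among 10676 genes over 25 profiles of cell types in the 2 libraries, by Pearson's r of log2(CPM + 10). The profiles of a library share its depth and any free RNA. Gpihbp1 was closest to C1qtnf9 (r = 0.98), Tcf15 (0.98), the partner of Meox2, and Btnl9 (0.97). Fabp4 was closest to Aqp7, the glycerol channel (0.94), Mgll, which encodes monoglyceride lipase (0.93), and Tcim (0.92), and Meox2 to Akap12 (0.94), Npr3, the natriuretic peptide clearance receptor (0.93), and Slc26a10 (0.92). Cd36 was closest to Casz1 (0.86), Nus1 (0.86) and Slc25a25 (0.84), and Lpl to Nr1h3, which encodes the oxysterol receptor LXRα (0.81), Slco2b1 (0.76) and Mapk6 (0.75). Fabp5 had the weakest neighbours, Sh3glb1 (0.73), Eepd1 (0.73) and Fnip2 (0.69).

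Among the 6 genes themselves the highest r over these profiles was that of Gpihbp1 with Meox2 (0.89), followed by Gpihbp1 with Fabp4 (0.83). Lpl with Meox2 (0.23) and Lpl with Gpihbp1 (0.24) were the lowest. The lipase and its anchor thus had among the least similar profiles of the set.

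The other genes of fatty acid handling were taken from a list of 74 in 9 roles. In endothelial cells 52 were comparable, 5 past 1.5-fold higher and 6 lower in HFD, with a median log2 ratio of -0.03, where 4.73% of 10333 genes were higher and 16.6% lower, with a median of -0.17. Scaled by the median of ratios, 7.73% were higher and 10.6% lower. Over the same cells Lpl read 0.93, Cd36 0.54 and Fabp4 0.36. The lipase partners included Angptl4, an inhibitor of the lipase, at 137 CPM in ND and 269 CPM in HFD (0.98, 0.87 to 1.08). In the same group Lipg, endothelial lipase, was 38.9 and 15.8 CPM (-1.29), Pcsk6, a protease that cleaves lipases, 5.49 and 2.44 CPM (-1.17) and Lmf1, needed for lipase folding, 9.36 and 5.79 CPM (-0.69).

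Among the fatty acid binding proteins Fabp3, the heart form, was 8.55 and 31.5 CPM (1.88, 1.51 to 2.27). The genes of triglyceride storage that were higher were Mgll (873 and 1508 CPM, 0.79), Hilpda, an inhibitor of lipolysis (20.4 and 45.7 CPM, 1.16), and Lipe, hormone-sensitive lipase (68.2 and 113 CPM, 0.72). G0s2, which inhibits triglyceride lipase, was lower (12.6 and 6.55 CPM, -0.94), and Plin2, a coat protein of lipid droplets, had a ratio of -0.23. Of the transcriptional regulators, Tcf15 was 494 and 386 CPM (-0.36, -0.43 to -0.29) and Pparg 147 and 189 CPM (0.37, 0.26 to 0.48), neither past 1.5-fold, while Klf15 was lower with 63 and 9 UMIs (-2.22). Aplnr, the apelin receptor, was 50.8 and 16.9 CPM (-1.59). The transport proteins Slc27a3 (0.02) and Slc27a4 (-0.32) had intervals that held 0. No gene of acyl-CoA synthesis, caveolae or mitochondrial oxidation passed 1.5-fold.

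In macrophages 37 of the 74 were comparable, and 8 were higher and 3 lower, with a median of 0.23 against -0.09 for all genes, of which 9.67% were higher and 16.9% lower (14.7% and 11.5% under the median of ratios). Storage genes were the largest group among them, with Mgll at 9.65 CPM in ND and 53.2 CPM in HFD (2.46), Hilpda at 29.6 and 107 CPM (1.85), Plin2 at 212 and 651 CPM (1.62) and Abhd5, an activator of triglyceride lipase (0.74, -0.01 to 1.56). Lipe was lower (29.0 and 11.8 CPM, -1.30). Of the lipase partners, Apoc1, an apolipoprotein that inhibits the lipase, was 18.7 and 102 CPM (2.45) and Angptl4 7.72 and 17.6 CPM (1.19). The transport protein Slc27a1 was 27.7 and 124 CPM (2.16), while Slc27a4 had a ratio of -0.67 with an interval that held 0 (-1.51 to 0.18). Pparg had 6 UMIs in ND and 56 in HFD (2.17, 0.95 to 3.67) and Notch1 was lower (-1.19). Slc27a3, Fabp3 and Tcf15 had under 50 UMIs together. These ratios are over all macrophages, of which foam cells were 6.23% in ND and 36.6% in HFD. Within foam cells Mgll was 1.06 (-0.02 to 2.40), Slc27a1 0.90 (0.22 to 1.68), Hilpda 0.74 (0.09 to 1.47) and Plin2 0.43 (0.16 to 0.71). Apoc1 in foam cells had 1 UMI in ND (5.68 CPM) and 290 in HFD (180 CPM), too few in ND to be compared. Within resident cells Slc27a1 was 2.17 and Plin2 1.46, while Apoc1 stood at 27.5 CPM in both libraries. Adipocyte markers in these cells summed to under 23 CPM in every macrophage subset, a sum limited in advance by the gate, which allowed at most 2 such markers per cell.

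**Figure D5:**
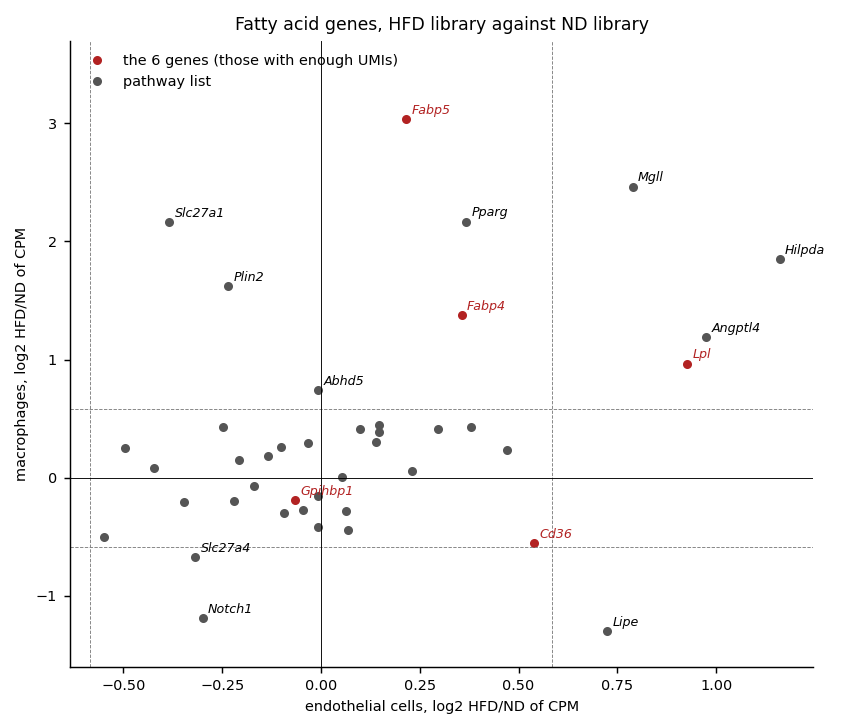
Log2 ratio of HFD to ND CPM in endothelial cells (horizontal axis) and macrophages (vertical axis) for 5 of the 6 genes (red) and 36 genes of the pathway list (grey) that were comparable in both. Dashed lines mark 1.5-fold and genes past it in either class are named. Lpl, Angptl4, Mgll and Hilpda lie past 1.5-fold higher in both classes, and Fabp5 lies high in macrophages (3.04) with 0.22 in endothelial cells.

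Lpl, Mgll, Hilpda and Angptl4 were past 1.5-fold higher in both classes, though the macrophage Lpl ratio was 0.033 with the subsets weighted as in ND. Lipe was higher in endothelial cells and lower in macrophages. In fibroblasts, 45 of the 74 were comparable, with 2 higher and 6 lower and a median of -0.07, where 4.26% of all genes were higher and 15.3% lower. The Lpl ratio of 1.26 in fibroblasts was larger than that of Angptl4 (0.57), Plin2 (0.56) or Mgll (0.34) in the same cells. The 2 that were higher were the lipid droplet protein Plin4 (1.32) and the triglyceride lipase Pnpla2 (0.59).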

How the data were processed

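Single-cell 3′ RNA sequencing of 1 ND and 1 HFD library was examined, and the 6 genes and all gene lists were chosen with earlier results of these data known. The deposited values are raw UMI counts per gene and barcode in filtered matrices that the authors made with Cell Ranger 3.0.1 per the file headers. The submitters' processing notes name the mm10 build, bcl2fastq, UMI-tools, Seurat 3.2.0 and R 4.0.0. Files with joined counts of both libraries were not used here, and 0 columns of samples were left unmapped.

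Kept barcodes had 200 or more genes, 200 or more UMIs and no more than 30% mitochondrial reads by UMI (27137322 UMIs in ND, 17191279 in HFD). Cells were gated by UMIs of at least 3 of 6 own markers and at most 2 of every other of 16 classes, and subsets by at least 2 of 5. Mixed barcodes stood in for doublets and were left out of the gates, and no doublet caller was run. Of all barcodes 39 occurred in both libraries, and 1 of those kept. Gates with at least 20 cells were described, while the fibroblast groups were described whatever their number of cells. Genes named beside the 6 were the pathway genes past 1.5-fold with the few others of known role, and the 3 genes closest to each by Pearson's r. UMIs were summed per gate and divided by the gate's total (CPM). Ratios needed 50 or more UMIs in sum and 4 or more per library. Levels carry exact Poisson, shares exact Clopper-Pearson and ratios exact conditional binomial 95% intervals. Cells were thinned without replacement to 1000 UMIs. Alternatives were another scaling, other totals, gates, mitochondrial limits and gene filters, per-cell means, subtraction of the T cell level, and 3 chosen after the data were seen. Positions and coding sequences came from GENCODE M21 and promoters from RefSeq. Python 3.11.15, numpy 2.4.6, scipy 1.17.1, pandas 2.3.3 and matplotlib 3.10.9 were used, and the scripts were tested on simulated data.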

Additional observations from a re-analysis of the deposited data

Results flagged for a closer look

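Cd36 and Lpl had ratios of HFD to ND past 1.5-fold in opposite directions in different cell types. With 1 library per diet the difference between cell types was not tested. The log2 ratio of Cd36 was 1.05 in fibroblasts, -0.81 in resident macrophages, -1.14 in foam macrophages and -0.70 in macrophages of neither subset. The fibroblast level (30.1 and 62.4 CPM) had intervals that overlapped those of T cells (31.8 and 91.4 CPM), while the resident macrophage level (565 and 322 CPM) was above it in both libraries.

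The log2 ratio of Lpl was 0.93 in endothelial cells, 0.88 in capillary cells, 1.26 in fibroblasts, 0.96 over all macrophages and 0.84 in resident macrophages, against -0.61 in foam macrophages. The foam value rested on 20 ND cells, 1 of which held 36.3% of the Lpl UMIs, and without that cell it was -0.08.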

How the results depend on the processing

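Over 434 alternative values of 44 ratios, 411 kept their sign, and of 252 alternatives to ratios past 1.5-fold, 217 stayed past it. For endothelial Cd36, Fabp4, Fabp5, Lpl, Gpihbp1 and Meox2 in that order, the log2 ratios were 0.69, 0.51, 0.37, 1.08, 0.090 and 0.35 under the median of ratios, which moved the median of all endothelial genes from -0.17 to -0.01. Totals without mitochondrial, haemoglobin and ribosomal protein genes gave 0.67, 0.49, 0.35, 1.06 and 0.064 for the first 5. No mitochondrial limit gave 0.45, 0.22, -0.026, 0.82, -0.12 and -0.021. At most 1 marker of another class gave Cd36 0.44, Fabp4 0.28, Fabp5 0.068, Lpl 0.87 and Meox2 0.058, at most 20% mitochondrial UMIs gave Cd36 0.51, Fabp4 0.29, Fabp5 0.39 and Gpihbp1 -0.14, and per-cell means gave Cd36 0.48, Fabp4 0.31, Fabp5 0.13, Lpl 0.87 and Gpihbp1 -0.10. Fabp4 and Fabp5 were 0.33 and 0.12 without the 5% of cells with the most UMIs and 0.37 and 0.14 with gates set on thinned cells, and Fabp5 was 0.15 after subtraction of the T cell level.

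Fibroblast Lpl was 1.40 under the median of ratios, 1.44 with the other totals, 1.63 with at most 1 other marker, 0.74 with at most 20% mitochondrial UMIs, 1.14 with thinned gates and 1.38 by per-cell means. Macrophage Fabp5 and Lpl were 3.18 and 1.11 under the median of ratios, 3.22 and 1.20 with at most 20% mitochondrial UMIs, 2.74 and 0.71 with no such limit, 6.26 and 1.29 without the 5% of cells with the most UMIs, 5.42 and 1.40 with thinned gates, 4.54 and 1.14 by per-cell means, 4.56 and 1.26 without the top ND foam cell, and 1.04 and 0.033 at ND subset weights. Macrophage Fabp5 was 4.19 with at most 1 other marker and 3.24 after T cell subtraction. Of the 23 values that changed sign, 6 belonged to ratios past 1.5-fold. They were luminal Gpihbp1 (0.33 with thinned gates), foam Cd36 and Lpl (0.077 and 0.47 without the 5% of cells with the most UMIs), foam Lpl (1.73 with thinned gates) and Cd36 and Gpihbp1 in macrophages of neither subset (0.0023 and 0.023 with thinned gates). Of the other 17, those past 1.5-fold the other way were luminal Lpl (0.68 without the 5% of cells with the most UMIs) and Fabp4 in macrophages of neither subset (0.72 with thinned gates). The cause was not tested.

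Counts of endothelial genes past 1.5-fold were 489 higher and 1711 lower, against 799 and 1093 under the median of ratios and 740 higher with the other totals. In fibroblasts 364 were higher and 1307 lower, against 606 higher with at least 20 UMIs, 589 higher under the median of ratios, and 643 higher and 799 lower with the other totals. In macrophages 682 were higher, and 1037 under the median of ratios. Macrophage Cd36 (-0.55) passed 1.5-fold under 6 alternatives. No paired analysis was possible because each diet has 1 library. With 25 HFD T cells and 5 Lpl UMIs in them, depth limits what the T cell level can show.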
